A study of Mus musculus with 5 samples.

Results

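The genes of the matrix proteases and their inhibitors were taken by symbol from the deposited gene tables. The rule itself used no measured value, but it was chosen with earlier results of these data known. The rule took every Mmp, Adam, Adamts and Adamtsl gene followed by a number, together with Timp1 to Timp4 and Reck, which gave 86 of the 35478 genes listed. They comprised 23 matrix metalloproteinases (MMPs), 34 ADAMs, 19 ADAMTS proteases, 5 ADAMTS-like genes and 5 inhibitors. Of the 86 genes, 56 had at least 10 counts in at least 1 library, called measured here, and 30 did not, and 52 passed the filter on low counts and were tested.

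Kidney RNA was sequenced from 5 male mice of the strain C57BL/6J;129, 1 library per mouse, to compare the injured kidney with and without Prdm16 in the tubular epithelium. The control group was PRDM16flox/flox (mice 1 and 3, n = 2) and the other group was Ksp-Cre/PRDM16 flox/flox (mice 1, 2 and 3, n = 3), called control and Ksp-Cre mice here. All 5 mice carried floxed Prdm16 alleles and all had unilateral ischemia-reperfusion injury (UIRI) at an age of 7 to 8 weeks. The vessels of the left kidney were clamped for 35 minutes at 38.5°C, the right kidney was removed on day 10 and the mice were killed 24 hours later, on day 11. Ksp is the promoter of the kidney cadherin gene Cdh16 and drives Cre in tubular epithelial cells, so other kidney cells keep Prdm16, and the loxP sites flank exon 9. No uninjured kidney was analysed here, so the values compare genotypes within injury. The labels give kidney as the tissue and the methods give kidney cortex. For the strain, the labels give C57BL/6J, and the strain named above is that of the methods.

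MMPs, ADAMs and ADAMTS proteases are zinc-dependent enzymes. Secreted MMPs degrade collagens, gelatin, elastin and proteoglycans, and membrane-type MMPs do so at the cell surface. ADAMs are mostly membrane proteins that cut the outer domains of receptors and growth factors from cells. ADAMTS enzymes are secreted proteases that cleave proteoglycans such as aggrecan and versican, trim procollagens or bind the fibrillin network. TIMPs block the active site of these enzymes and Reck is an inhibitor anchored to the membrane. In the kidney the balance of these enzymes and inhibitors is known for its part in basement membrane turnover and in the build-up of interstitial matrix after injury.

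Total counts were 14939040 to 16425161 per library, and 1 count is 0.0568 to 0.0718 CPM (counts per 1000000 counts, TMM-scaled). Values are given for control mice 1 and 3 and then for Ksp-Cre mice 1, 2 and 3, always in this order. Ksp-Cre mouse 3 stood apart: its log2 CPM correlated with the other libraries at r = 0.943 to 0.960, against 0.970 to 0.991 for all other pairs. Prdm16 had 25.3 and 20.02 CPM in the control mice and 17.1, 16.95 and 17.99 CPM in the Ksp-Cre mice, with a log2 fold change of -0.38 and a standard error of 0.15 that did not pass the test (adjusted p = 0.259). Reads of its remaining exons and of cells without Cre are counted with it. Summed markers of the proximal tubule were 6191 to 6558 CPM in the control and 1425 to 2823 CPM in the Ksp-Cre mice, with 7 of 7 genes below 0 in log2 fold change. Summed markers of fibroblasts and myofibroblasts were 380.0 to 585 CPM and 622 to 917 CPM, with 7 of 7 above 0. Those of tubular injury were 14947 to 15509 CPM and 32018 to 37997 CPM, also with 7 of 7 above 0. Most of the injury sum was Spp1, with 12277 and 13442 CPM in the control and 27016, 28061 and 33774 CPM in the Ksp-Cre mice. Of the injury markers, Vcam1 alone overlapped between the groups, with 457 and 415 CPM and 544, 804 and 366 CPM. Summed macrophage markers were 886 to 1258 CPM and 682 to 1440 CPM, with 5 of 7 above 0. The sum was lowest in Ksp-Cre mouse 3, as were Lyz2 and Adgre1, while Cd68, C1qa, C1qb, Csf1r and Mrc1 were not. Neutrophil markers were 18.1 to 19.9 CPM and 21.5 to 37.0 CPM. Summed markers of red blood cells were 6.67 to 10.8 CPM and 40.5 to 151 CPM, with 5 of 5 above 0 and a median log2 fold change of 3.93. Podocyte markers were 448 to 579 CPM and 300.0 to 331 CPM, with 4 of 4 below 0, and Nphs1 of these fell past the adjusted threshold (log2 fold change -0.85, adjusted p = 0.0412). Markers of the thick ascending limb were 2609.9 to 3579 CPM and 1169.6 to 2459.5 CPM, those of the distal convoluted tubule 956 to 1509 CPM and 201 to 827 CPM, and those of the collecting duct 283 to 337 CPM and 142 to 283 CPM, with all 10 genes below 0. Endothelial markers (2 of 5 above 0), T cell markers (1 of 4) and B and plasma cell markers (1 of 2 tested) overlapped between the groups. No gene of these lists was at 0 in every library, and of the markers of the male reproductive tract Prm1 and Tnp1 were. The part of these shifts in the results was not tested, and in whole tissue fewer cells of a type and less RNA per cell cannot be told apart.

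Among the 52 tested genes the ADAMTS protease Adamts1 was the 1 gene that rose past the adjusted threshold, and no gene fell past it. That is 1.92% of the genes, beside 0.976% of all 16394 genes tested in either direction and 0.104% in the upward direction. At an unadjusted p under 0.05, 14 genes were higher in the Ksp-Cre mice, beside a background of 7.64%, and 3 were lower (Timp3, Adamtsl2 and Adamts15), beside 11.2%. In 16 genes all Ksp-Cre mice were above both control mice, where the background is 20.3%, and in 5 all were below, where it is 21.3%. In the other 31 the groups overlapped. The log2 fold change was above 0 in 36 genes and below 0 in 16, with a median of 0.21, while 54.0% of all genes tested were above 0, with a median of 0.04.

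The 3 Ksp-Cre mice did not share one pattern. Relative to the control mean, the median of the 52 genes was 0.31 on the log2 scale in Ksp-Cre mice 1 and 2 and -0.17 in Ksp-Cre mouse 3, and -0.03 and 0.03 in the control mice. Ksp-Cre mouse 3 was the lowest of the 5 libraries for 26 genes and the highest for 13, where the background is 32.0% of all genes for each. Without Ksp-Cre mouse 3, 18 of the 52 genes were higher at an adjusted p under 0.05, or 34.6%, beside 7.82% of the 16196 genes tested then, and 3 were lower, or 5.77%, beside 11.0%. With all 5 libraries, the DESeq2 test called 8 genes higher, or 16.0% of the 50 with an adjusted p, beside 1.87% of all genes, and 2 lower, or 4%, beside 5.33%. In both directions together it called 10 of the 50, beside 7.2% of all genes.

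**Figure D1:**
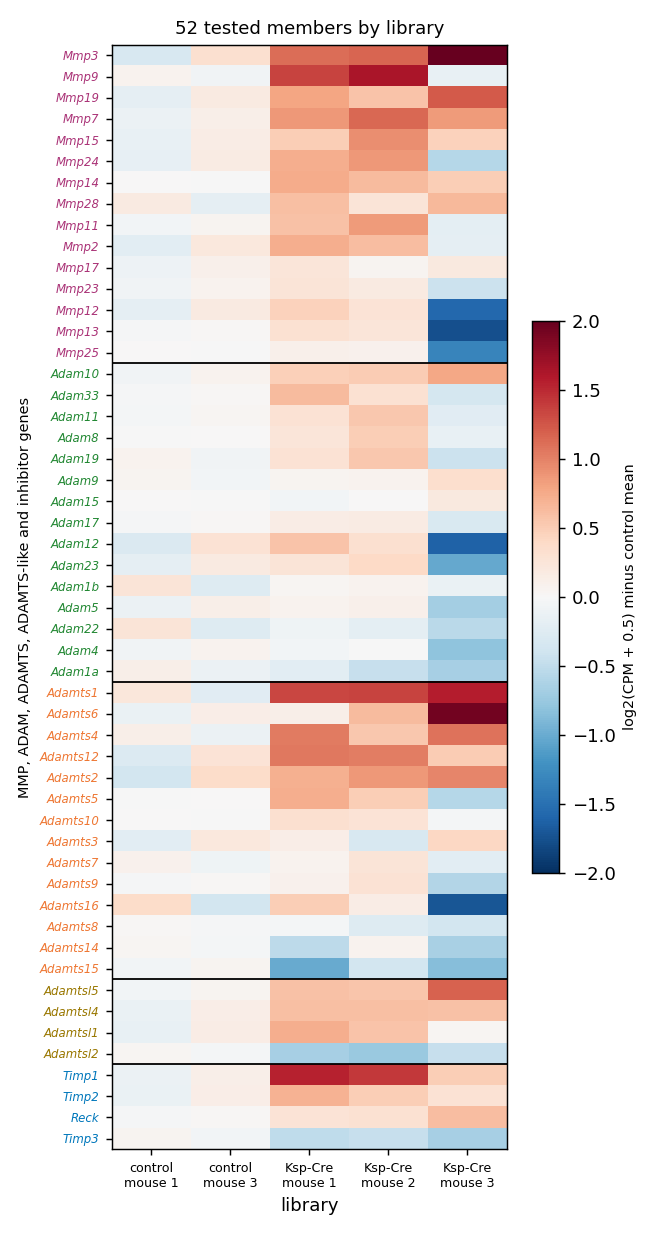
Each row is 1 of the 52 tested genes and each column 1 library; the colour is log2(CPM + 0.5) minus the mean of the control libraries, with lines between the families. The medians of the 5 columns are -0.03, 0.03, 0.31, 0.31 and -0.17, and Ksp-Cre mouse 3 is the lowest library for 26 genes, among them Mmp12, Mmp13, Adam12 and Adamts16.

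Levels between genes were compared by deposited TPM, which scales counts by gene length within a library. The inhibitor Timp3 led with a mean of 610.3 TPM over the 5 libraries, ahead of Adamts1 with 162, Adam10 with 97.5, Adam15 with 69.5 and Timp2 with 68.8. Timp3 was above every other member in each library. From Adamts1 down to Mmp14, the most abundant MMP with 59.8 TPM, the ranges of neighbouring genes in this order overlapped over the 5 libraries. The median gene tested had 1.21 times as much TPM in the Ksp-Cre as in the control mice, so a TPM difference between the groups is to be read against that shift.

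**Figure D2:**
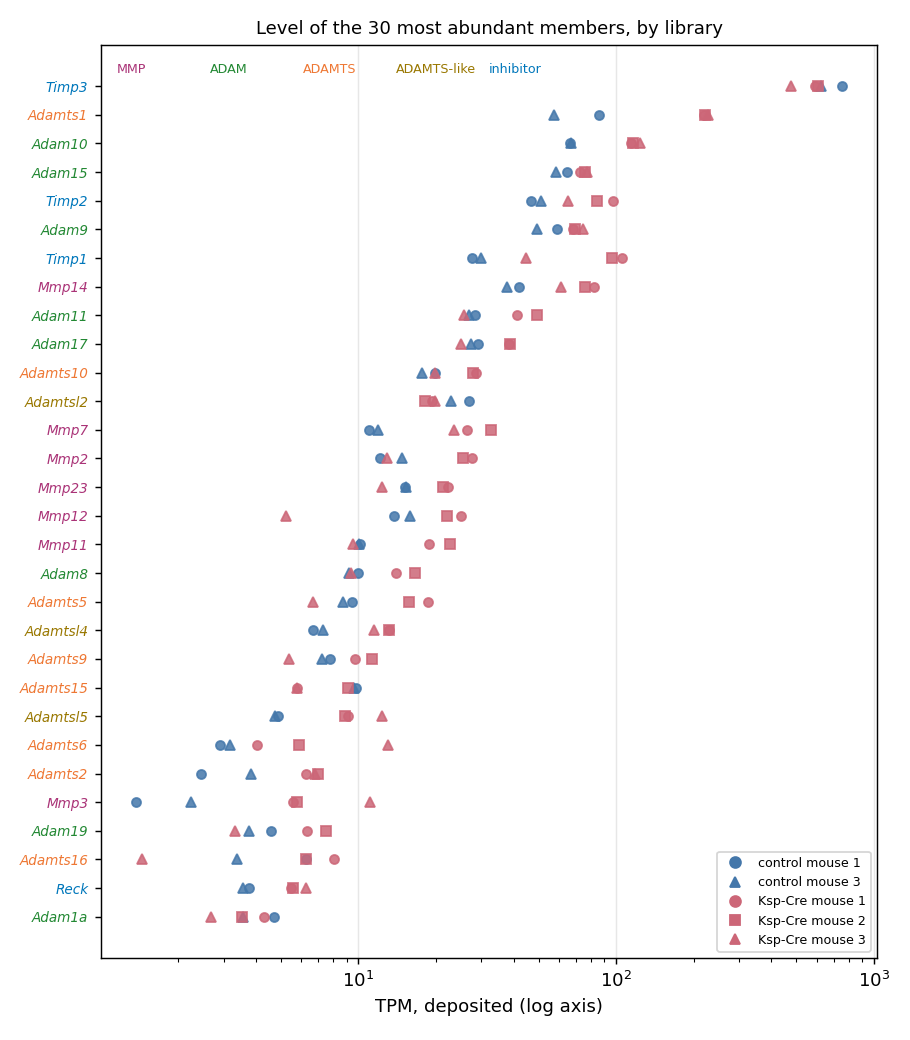
Deposited TPM (log axis) of the 30 members with the highest mean, 1 row per gene and 1 symbol per library, with gene names coloured by family. Timp3 lies at 475 to 751 TPM, and Adamts1 is at 57.3 and 85.6 TPM in the control mice and at 218 to 228 TPM in the Ksp-Cre mice.

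The catalytic zinc of these enzymes is bound by 3 histidines in a short motif, known as HExxHxxGxxH, and its codons are shown here for the genes the results turn on. Among the 85 genes with a coding transcript in GENCODE M21 (GRCm38), 56 held this form: all 23 MMPs, 20 of 33 ADAMs and 13 of 19 ADAMTS genes. A form with asparagine in place of the glycine, searched for after the glycine form was missed in some ADAMTS genes, was found in 5 more, among them Adamts1, Adamts4 and Adamts15. None of the ADAMTS-like genes, TIMPs or Reck held either form, nor did Adam11, Adam22 and Adam23, which are known to lack catalytic activity. The windows are printed 5′ to 3′ on the coding strand, with the 3 histidine codons in capitals. The positions on GRCm38 are chr16:85799191-85799545 for Adamts1, chr1:171253210-171253915 for Adamts4, chr9:30911255-30911690 for Adamts15 and chr16:85878015-85887826 for Adamts5. They are chr9:7449775-7449807 for Mmp3, chr9:7697614-7697646 for Mmp7, chr14:54437627-54437659 for Mmp14, chr9:70754296-70761585 for Adam10 and chr12:21336732-21336764 for Adam17. Those of Adamts1, Adamts15, Adamts5 and Adam17 are on the minus strand, and those of the 4 ADAMTS genes and of Adam10 are split by an intron.
Adamts1: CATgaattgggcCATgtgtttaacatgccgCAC
Adamts4: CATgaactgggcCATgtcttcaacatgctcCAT
Adamts15: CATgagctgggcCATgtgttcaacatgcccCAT
Adamts5: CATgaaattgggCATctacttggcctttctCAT
Mmp3: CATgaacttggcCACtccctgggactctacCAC
Mmp7: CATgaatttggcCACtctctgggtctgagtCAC
Mmp14: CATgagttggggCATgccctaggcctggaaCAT
Adam10: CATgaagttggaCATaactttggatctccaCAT
Adam17: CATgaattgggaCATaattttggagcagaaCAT

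The 38 tested genes with either form had a median log2 fold change of 0.21 and the 14 without it a median of 0.11. The 14 included Adamts8, grouped here with the proteoglycan-cleaving enzymes, and Adam4 and Adam5. A missing match in this search does not show that a protein lacks a catalytic site. The 3 genes that were lower at an unadjusted p under 0.05 were Adamts15, Adamtsl2 and Timp3. Adamts15 is a protease with the asparagine form, Adamtsl2 a member without either form that binds microfibrils, and Timp3 an inhibitor.

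Adamts1, a secreted protease of aggrecan and versican, was the gene that rose. The files place it at chr16:85590715-85600001 on the minus strand. It had 182 and 134 CPM in the control mice and 398, 402 and 466 CPM in the Ksp-Cre mice, or 158 ± 33.8 (SD, n = 2) and 422 ± 38.3 (SD, n = 3). All 3 Ksp-Cre mice were above both control mice, and Ksp-Cre mouse 3 was the highest. The log2 fold change was 1.41 ± 0.18, or 2.66-fold, with an adjusted p of 0.0412 in edgeR and 3.56e-09 in DESeq2. The call was lost without either control mouse and without Ksp-Cre mouse 1 or 2, with the mouse number as a block, with the gene length trend removed and in limma on log2(FPKM + 0.1). Over all alternatives the log2 fold change was 1.21 to 1.65 and the adjusted p 3.56e-09 to 0.496. Per length, Adamts1 made up 57.1% and 49.3% of the summed TPM of the 19 ADAMTS genes in the control mice and 70.6%, 70.5% and 77.4% in the Ksp-Cre mice, so that this share was higher in every Ksp-Cre mouse.

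The other proteoglycan-cleaving ADAMTS enzymes differed in direction. Adamts4, an aggrecanase, had 4.45 and 3.73 CPM in the control and 8.86, 6.14 and 9.19 CPM in the Ksp-Cre mice, and the groups did not overlap (log2 fold change 0.98 ± 0.27, adjusted p = 0.139; DESeq2 adjusted p = 0.0484). Adamts5, the other main aggrecanase, had 33.8 and 34.4 CPM and 57.1, 48.4 and 22.9 CPM, with Ksp-Cre mice 1 and 2 above the control mice and Ksp-Cre mouse 3 below them. Its log2 fold change was 0.33 ± 0.37 (adjusted p = 0.666), and 0.63 without Ksp-Cre mouse 3. Adamts15, which also cleaves proteoglycans, was lower. It had 28.8 and 31.1 CPM in the control and 14.6, 23.04 and 16.4 CPM in the Ksp-Cre mice, without overlap, at -0.73 ± 0.22 on the log2 scale (adjusted p = 0.155). Adamts8 had 0.674 and 0.646 CPM and 0.624, 0.473 and 0.400 CPM, at most 11 counts in a library, and a log2 fold change of -0.39 ± 0.42. Adamts9 had 30.2 and 31.1 CPM and 32.5, 37.7 and 20.3 CPM, with overlapping groups.

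**Figure D3:**
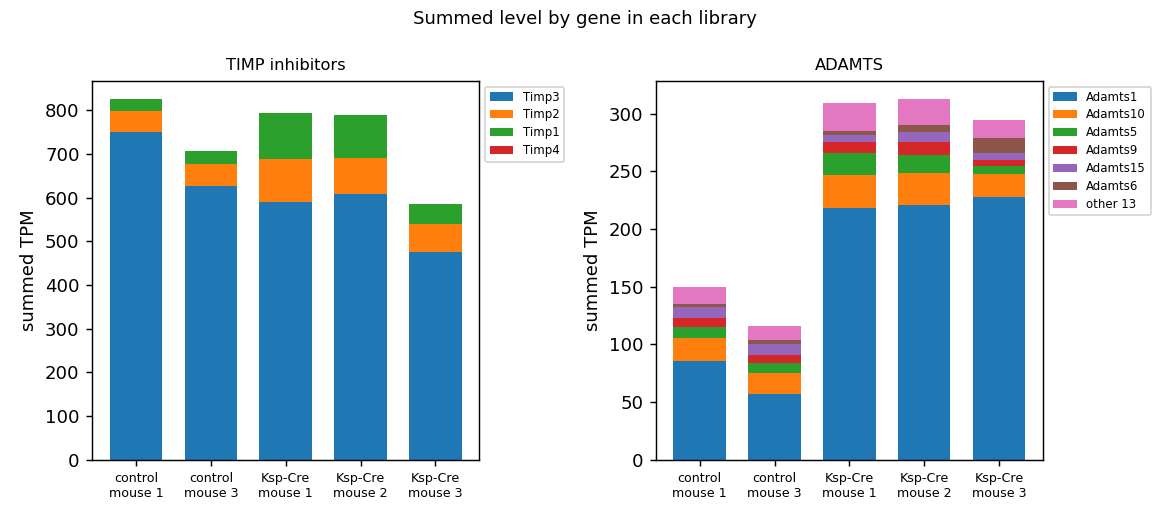
Summed deposited TPM in each library, stacked by gene, for the 4 TIMP inhibitors (left) and the 19 ADAMTS genes (right). The TIMP sum is 585 to 826 TPM with Timp3 as the largest part of every bar, and the ADAMTS sum is 116 and 150 TPM in the control mice and 295 to 313 TPM in the Ksp-Cre mice.

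Of the ADAMTS enzymes that trim procollagens, Adamts2 had 7.75 and 13.3 CPM in the control mice and 17.03, 18.9 and 20.6 CPM in the Ksp-Cre mice, all above the controls (log2 fold change 0.84 ± 0.26, adjusted p = 0.168). Adamts3 and Adamts14, with the same function, had groups that overlapped and log2 fold changes of 0.11 and -0.43. Adamts12, a relative of Adamts7, had 2.43 and 3.80 CPM in the control and 6.87, 6.73 and 4.53 CPM in the Ksp-Cre mice, without overlap, at 0.96 ± 0.33 on the log2 scale (adjusted p = 0.202). Adamts6 had 10.8 and 12.99 CPM and 12.8, 18.7 and 46.4 CPM. Its difference rested on Ksp-Cre mouse 3: the log2 fold change was 1.12 ± 0.55 (adjusted p = 0.337) with that mouse and 0.41 (adjusted p = 0.184) without it. Adamts16, known for its expression in kidney, was opposite in this respect, with 24.1 and 14.4 CPM in the control mice and 26.5, 20.7 and 5.33 CPM in the Ksp-Cre mice, lowest in Ksp-Cre mouse 3.

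The ADAMTS-like proteins lack the protease domain and several of them bind fibrillin microfibrils. Adamtsl2 had 45.3 and 42.5 CPM in the control mice and 27.6, 26.2 and 31.8 CPM in the Ksp-Cre mice. All 3 were lower, at -0.62 ± 0.13 on the log2 scale, which missed the threshold in edgeR (adjusted p = 0.0818) and passed it in DESeq2 (0.0207). Adamtsl4 and Adamtsl5 were higher in all 3 Ksp-Cre mice, with 12.2 and 14.7 against 20.7, 20.6 and 20.3 CPM and 7.89 and 8.47 against 12.5, 12.3 and 19.1 CPM. Their log2 fold changes were 0.61 ± 0.15 (adjusted p = 0.115 in edgeR and 0.0453 in DESeq2) and 0.84 ± 0.25 (adjusted p = 0.163 in edgeR and 0.0687 in DESeq2).

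Among the MMPs, 12 of 15 tested genes were above 0 in log2 fold change (54.0% of all genes) and 5 were higher at an unadjusted p under 0.05 (7.64% of all genes). None passed the adjusted threshold in edgeR and 3 were higher in DESeq2 (1.87% of all genes). Mmp3 (stromelysin-1), which degrades several matrix proteins and activates other MMPs, had 1.08 and 1.94 CPM in the control mice and 3.75, 3.90 and 8.33 CPM in the Ksp-Cre mice. All Ksp-Cre mice were above the controls and Ksp-Cre mouse 3 was the highest. The log2 fold change of 1.81 ± 0.51 was the largest of the 52 genes (adjusted p = 0.144 in edgeR and 0.0158 in DESeq2). Its control values rest on 16 and 27 counts. Mmp7 (matrilysin), known to be made by injured tubular epithelium, had 5.33 and 6.39 CPM in the control and 11.01, 13.6 and 10.9 CPM in the Ksp-Cre mice, without overlap. Its log2 fold change was 1.02 ± 0.21 (adjusted p = 0.0787 in edgeR and 0.00414 in DESeq2). Mmp11 had 10.1 and 11.1 CPM and 16.1, 19.4 and 9.13 CPM, high in Ksp-Cre mice 1 and 2 only.

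Of the gelatinases, which degrade denatured collagen and basement membrane collagen, Mmp9 had 1.55 and 1.36 CPM in the control mice and 4.48, 5.55 and 1.27 CPM in the Ksp-Cre mice. Ksp-Cre mice 1 and 2 were high, and Ksp-Cre mouse 3 was below both control mice. The log2 fold change was 1.37 ± 0.64 (adjusted p = 0.316), and 1.78 without Ksp-Cre mouse 3. Mmp2 had 16.9 and 22.8 CPM and 32.9, 30.4 and 17.3 CPM and a log2 fold change of 0.44 ± 0.31 (adjusted p = 0.485). Here too Ksp-Cre mice 1 and 2 were above the control mice, but Ksp-Cre mouse 3 lay between them. Without that mouse the log2 fold change of Mmp2 was 0.68.

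Mmp14, the membrane-type protease that cuts collagen at the cell surface and activates pro-Mmp2 together with Timp2, was the most abundant MMP per length. It had 69.8 and 68.95 CPM in the control mice and 116, 107 and 97.4 CPM in the Ksp-Cre mice, or 69.4 ± 0.580 (SD, n = 2) and 107 ± 9.51 (SD, n = 3). All Ksp-Cre mice were higher, at 0.63 ± 0.12 on the log2 scale, or 1.54-fold (adjusted p = 0.0726 in edgeR and 0.00491 in DESeq2). Mmp15, another membrane-type enzyme, had 3.10 and 3.95 CPM and 5.11, 7.15 and 4.997 CPM, also without overlap (adjusted p = 0.259). Mmp17, Mmp23, Mmp24 and Mmp25 had overlapping groups, with log2 fold changes of 0.20, 0.04, 0.64 and -0.34. Of these, Mmp24 shares 14.8% of its exon bases with a gene on the opposite strand. Mmp19, a secreted MMP, had 1.42 and 1.94 CPM in the control and 3.24, 2.72 and 4.53 CPM in the Ksp-Cre mice, without overlap (log2 fold change 1.06 ± 0.36, adjusted p = 0.195). It shares 30.7% of its exon bases with Tmem198b on the opposite strand, so its value is uncertain. Mmp28, also secreted, had 2.16 and 1.58 CPM and 3.07, 2.30 and 3.20 CPM and an adjusted p of 0.362.

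**Figure D4:**
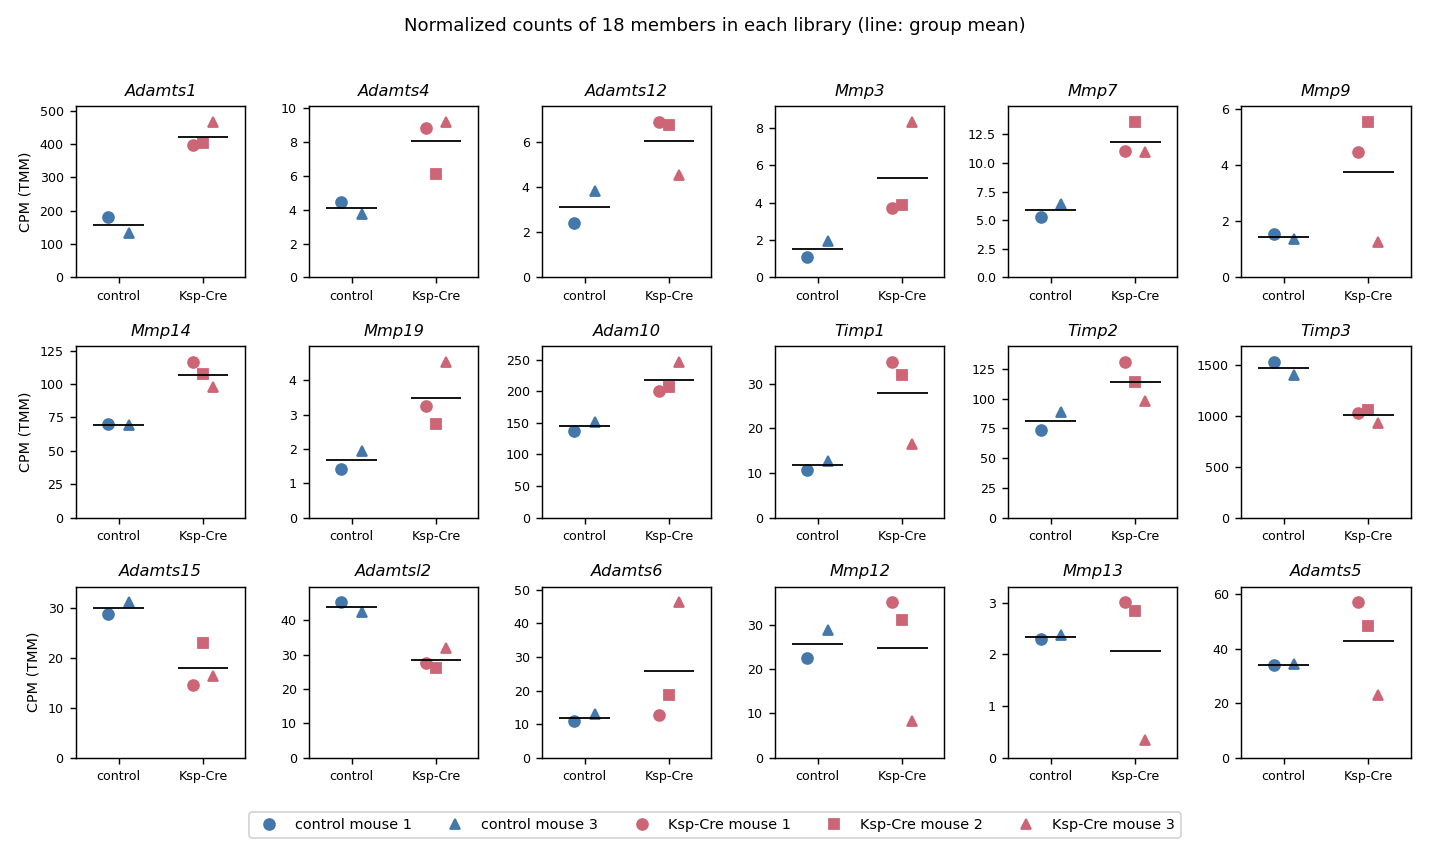
TMM-normalized CPM of 18 members in each library, with control mice on the left and Ksp-Cre mice on the right of each panel, each axis starting at 0 and a line at the group mean. For Adamts1, Mmp7, Mmp14 and Adam10 all 3 Ksp-Cre mice lie above both control mice, while Mmp12, Mmp13 and Adamts5 are lowest in Ksp-Cre mouse 3.

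A pair of MMPs on chromosome 9 was low in 1 mouse. Mmp12, the macrophage elastase, had 22.5 and 28.8 CPM in the control mice and 35.1, 31.1 and 8.26 CPM in the Ksp-Cre mice. Mmp13, a collagenase, had 2.29 and 2.37 CPM and 3.01, 2.84 and 0.333 CPM. For both, Ksp-Cre mice 1 and 2 were above the control mice and Ksp-Cre mouse 3 was far below them. The log2 fold changes were -0.05 ± 0.56 and -0.17 ± 0.76 with all libraries, and 0.37 and 0.33 without Ksp-Cre mouse 3. In that mouse Mmp13 rested on 5 counts. The summed macrophage markers had the same order over the Ksp-Cre mice, at 1440, 1320 and 682 CPM, and their part in these values was not tested. Of these markers, Lyz2 and Adgre1 alone were below both control mice in Ksp-Cre mouse 3.

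Mmp3, Mmp7, Mmp12 and Mmp13 lie together in a cluster of MMP genes on chromosome 9, and each has a start with an AP-1 motif before it. The AP-1 motif TGANTCA, which reads the same on both strands so that 1 search covers both, was sought in the 250 bases before each start in RefSeq (GRCm38.p6). It was found in 5 of 33 tested members with a promoter in the table (15.2%), namely these 4 and Adam19, when any listed start of a gene counted, beside 5.95% of 12895 tested genes. The 100 bases before the start are printed on the plus strand with the motif in capitals, at chr9:7445722-7445821 for Mmp3, chr9:7691990-7692089 for Mmp7, chr9:7347274-7347373 for Mmp12 and chr9:7272414-7272513 for Mmp13.
Mmp3: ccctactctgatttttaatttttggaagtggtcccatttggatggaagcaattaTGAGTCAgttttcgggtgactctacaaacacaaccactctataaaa
Mmp7: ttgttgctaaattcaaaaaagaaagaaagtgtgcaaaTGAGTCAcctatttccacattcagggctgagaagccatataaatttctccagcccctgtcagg
Mmp12: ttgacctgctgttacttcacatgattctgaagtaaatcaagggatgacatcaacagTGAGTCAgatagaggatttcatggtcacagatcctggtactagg
Mmp13: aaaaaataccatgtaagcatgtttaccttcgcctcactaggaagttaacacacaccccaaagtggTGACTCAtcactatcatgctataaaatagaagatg

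RefSeq lists a pair of starts each for Mmp7 and Mmp12, and the windows before the other start, chr9:7692091-7692340 and chr9:7344147-7344396, held no motif. For Mmp12 the window without the motif is the one that ends at the gene start given in the files. In the printed windows, counted from the start, the motif began at base -46 in Mmp3, -63 in Mmp7, -44 in Mmp12 and -35 in Mmp13. The 4 genes did not share a pattern: Mmp3 and Mmp7 were above the control mice in all 3 Ksp-Cre mice, and Mmp12 and Mmp13 were the lowest of all libraries in Ksp-Cre mouse 3. The match is a description of these letters, and binding was not measured. Of the same cluster, Mmp20, which was not tested, and Mmp10, Mmp1a and Mmp1b, which were not measured, also held the motif, and Mmp8 and Mmp27 did not.

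All 8 tested ADAM sheddases were above 0 in log2 fold change in edgeR, beside 54.0% of all genes, with a median of 0.18. Adam12 was barely above 0, and 7 of the 8 had overlapping groups. In 1, Adam10, all Ksp-Cre mice were above both control mice, where the background is 20.3%. Adam10, which sheds Notch and many other surface proteins, was the most abundant ADAM per length. It had 137 and 152 CPM in the control mice and 201, 206 and 246 CPM in the Ksp-Cre mice, or 144 ± 10.4 (SD, n = 2) and 218 ± 24.8 (SD, n = 3). All Ksp-Cre mice were higher, at 0.59 ± 0.14 on the log2 scale, or 1.51-fold (adjusted p = 0.112 in edgeR and 0.0170 in DESeq2). Adam17, which releases TNF and ligands of the EGF receptor, had 57.9 and 59.8 CPM and 64.9, 65.9 and 47.7 CPM. Its values in Ksp-Cre mice 1 and 2 were above the control mice and that of Ksp-Cre mouse 3 was below them, with a log2 fold change of 0.02 ± 0.17, whose sign turned under several alternatives. The widely expressed Adam9 and Adam15 had 112 and 103 against 111, 113 and 136 CPM and 97.2 and 96.8 against 93.8, 97.5 and 111 CPM, with log2 fold changes of 0.16 ± 0.14 and 0.06 ± 0.12. Adam15 was below 0 without Ksp-Cre mouse 3 (-0.02). Adam12, a marker of activated stroma, had 8.76 and 13.3 CPM in the control and 16.3, 13.6 and 3.20 CPM in the Ksp-Cre mice and was lowest in Ksp-Cre mouse 3. Its log2 fold change was 0.00 ± 0.63, and -0.00065 in DESeq2 and -0.52 with the mouse number as a block. Of the regulators of ADAM enzymes, Rhbdf1, Rhbdf2, Tspan14 and Tspan15, none passed the test in edgeR or DESeq2 or reached an unadjusted p under 0.05.

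Of the ADAMs without a catalytic site, Adam11 had 66.5 and 69.9 CPM in the control and 83.2, 99.2 and 57.97 CPM in the Ksp-Cre mice, again with Ksp-Cre mouse 3 below the controls. Its log2 fold change was 0.23 ± 0.23 (adjusted p = 0.617), and 0.42 without that mouse. Adam22 and Adam23 had log2 fold changes of -0.30 ± 0.24 and -0.00 ± 0.61. The remaining ADAMs are mostly known from testis and sperm, and 17 of 22 were not measured. Adam1a had 6.34 and 5.31 CPM and 4.94, 4.08 and 3.46 CPM, all Ksp-Cre mice lower (log2 fold change -0.48 ± 0.26, adjusted p = 0.368). Whether reads were split between Adam1a and the related Adam1b was not tested. Adam4 and Adam5 had at most 18 and 12 counts in a library and log2 fold changes of -0.36 and -0.22.

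**Figure D5:**
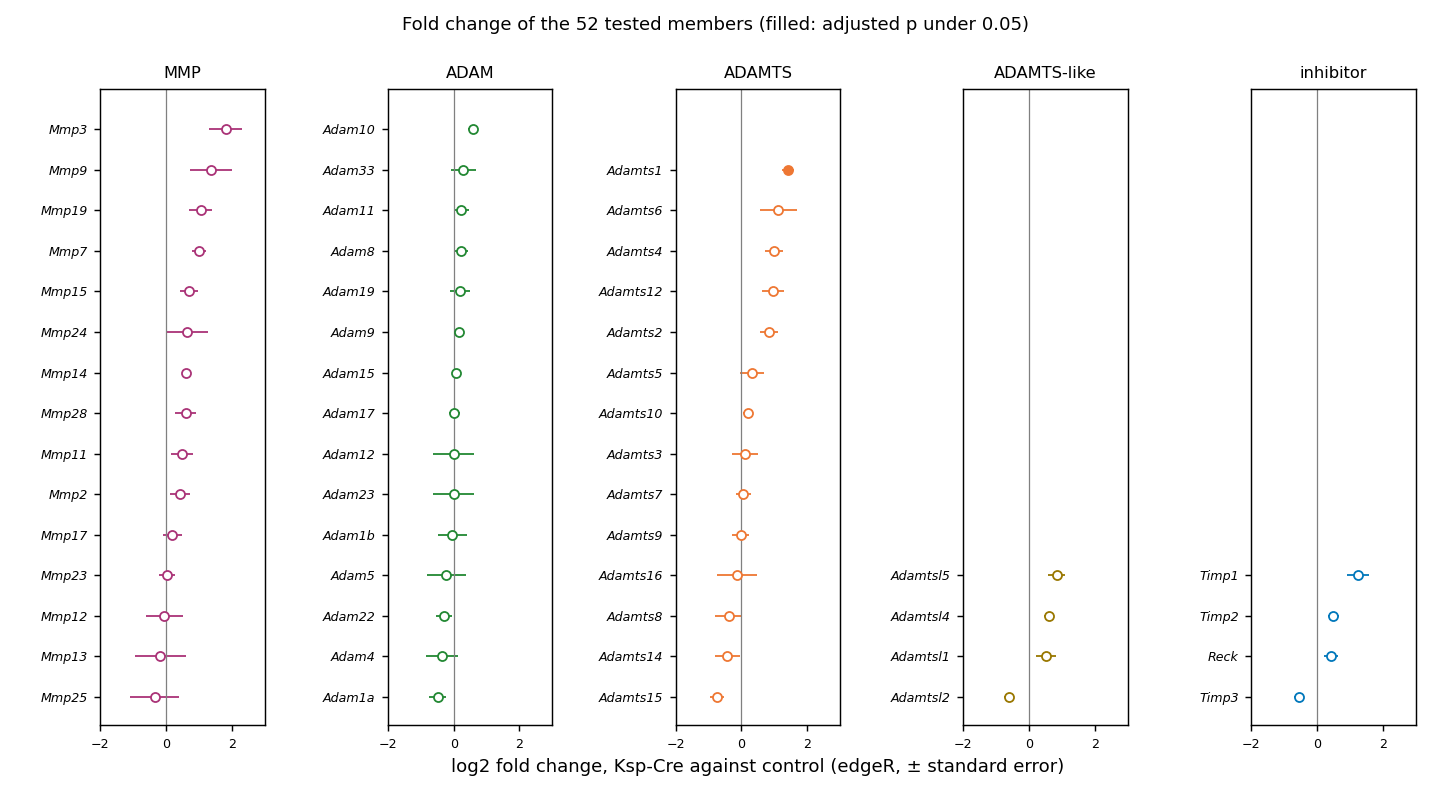
Log2 fold change of Ksp-Cre against control mice from edgeR for the 52 tested genes, by family, with bars of ± 1 standard error and a filled point for an adjusted p under 0.05. Adamts1 at 1.41 is the filled point, Mmp3 at 1.81 has the largest value and Adamts15 at -0.73 the smallest.

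The inhibitors split by gene. Timp3, which is bound to the matrix and blocks Adam17 and aggrecanases as well as MMPs, had 1533 and 1408 CPM in the control mice and 1031, 1062 and 930.3 CPM in the Ksp-Cre mice. All Ksp-Cre mice were lower, at -0.55 ± 0.15 on the log2 scale, or 0.685 times the control level (adjusted p = 0.131 in edgeR and 0.00769 in DESeq2). Timp1, the TIMP known to be induced by injury, had 10.7 and 12.8 CPM and 34.9, 32.1 and 16.6 CPM. All Ksp-Cre mice were higher and Ksp-Cre mouse 3 was the lowest of them, at 1.25 ± 0.34, or 2.37-fold (adjusted p = 0.134 in edgeR and 0.0114 in DESeq2). Timp2 had 73.6 and 88.8 CPM and 131, 114 and 98.5 CPM, without overlap (log2 fold change 0.50 ± 0.17, adjusted p = 0.192). Reck had 7.42 and 7.75 CPM and 9.31, 9.45 and 11.9 CPM, without overlap (log2 fold change 0.43 ± 0.20, adjusted p = 0.321). Timp4 was not measured.

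The make-up of the TIMPs differed between the groups in a quantity that does not depend on library scaling. Timp3 was 91.0% and 88.5% of the summed TIMP TPM in the control mice and 74.5%, 77.04% and 81.2% in the Ksp-Cre mice. Timp1 was 3.35% and 4.22% in the control mice and 13.3%, 12.2% and 7.62% in the Ksp-Cre mice. The groups did not overlap in either share, and with 10 ways to split 5 libraries into 2 and 3 a permutation test cannot reach 0.05, so none was run. The summed TPM of the 23 MMPs was 115 and 117 in the control mice and 227, 225 and 148 in the Ksp-Cre mice, beside the shift of 1.21 times for the median gene.

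Other genes of matrix degradation, taken from a list of 43 of which 40 were tested, gave 0 genes past the adjusted threshold in edgeR (0.976% of all genes) and 9 in DESeq2 (7.2% of all genes). At an unadjusted p under 0.05, 9 were higher and 5 lower, beside 7.64% and 11.2% of all genes. The log2 fold change was above 0 in 24 and below 0 in 16, beside 54.0% of all genes above 0, with a median of 0.08. Among the largest values was that of Lcn2, a binding partner of Mmp9 and a marker of tubular injury, with 109.8 and 94.00 CPM in the control and 272, 204 and 658 CPM in the Ksp-Cre mice (log2 fold change 1.89 ± 0.52, adjusted p = 0.138 in edgeR and 0.00130 in DESeq2). Without Ksp-Cre mouse 3 the log2 fold change of Lcn2 was 1.23. Plaur, the urokinase receptor, also had a large value, with 8.76 and 11.3 CPM and 24.5, 15.5 and 34.2 CPM (log2 fold change 1.30 ± 0.35, adjusted p = 0.131 in edgeR and 0.00998 in DESeq2). For both genes the Ksp-Cre mice were above the control mice, where the background is 20.3%. Both were picked for their large log2 fold changes, which favours such a separation.

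The smallest values were those of Mep1b, Pcsk6 and Serpinf2. Mep1b, a metalloprotease subunit of the proximal tubule brush border, had 71.1 and 135 CPM in the control mice and 12.1, 21.7 and 0.600 CPM in the Ksp-Cre mice (log2 fold change -3.16 ± 0.98, adjusted p = 0.169 in edgeR and 0.200 in DESeq2). Proximal tubule markers were lower in the same mice, and their part in this value was not tested. Pcsk6, a proprotein convertase, had 10.9 and 11.6 CPM and 4.995, 4.84 and 4.73 CPM (log2 fold change -1.21 ± 0.18, adjusted p = 0.0505 in edgeR and 1.20e-04 in DESeq2). Serpinf2, the plasmin inhibitor, had 163 and 143 CPM and 71.6, 88.1 and 48.5 CPM (log2 fold change -1.14 ± 0.25, adjusted p = 0.0837 in edgeR and 0.00159 in DESeq2). For all 3 genes every Ksp-Cre mouse was below both control mice, where the background is 21.3%. The 3 genes were picked for their small log2 fold changes, which favours such a separation.

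The 30 members under 10 counts in every library were the MMPs Mmp1a, Mmp1b, Mmp10, Mmp16, Mmp21 and Mmp27, the ADAMs Adam2, Adam3, Adam6a, Adam6b, Adam18, Adam20, Adam21, Adam24, Adam25, Adam26a, Adam26b, Adam28, Adam29, Adam30, Adam32, Adam34, Adam34l and Adam39, the ADAMTS genes Adamts17, Adamts18, Adamts19 and Adamts20, and Adamtsl3 and Timp4. A difference in these genes was not detectable at this depth. Mmp8, Mmp20, Adam7 and Adamts13 had 10 to 12 counts in their highest library and were not tested.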

How the data were processed

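RNA-seq of 5 mouse kidneys was analysed, grouped by the genotype in the labels. The authors deposited raw counts per gene, with TPM and FPKM made from them by gene length and library total, which were recomputed from the counts and differed by rounding. The authors' processing notes name CASAVA, featureCounts 2.0.1, DESeq2 1.16.1 and the build hg38, a human build, although the genes are mouse genes. The aligner and the use of strand are not given in the sources used here. Gene positions are those of the files and differ from GRCm38, which was used for sequences only. The lines of 5 genes were broken and rejoined.

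Counts of all 16394 genes kept by filterByExpr were scaled by TMM and tested with the quasi-likelihood test of edgeR 4.0.16 (R 4.3.3) on genotype without covariates, with Benjamini-Hochberg adjustment over all of them and a threshold of 0.05. CPM are TMM-scaled. The mice are separate animals with littermate controls. Each edgeR p-value tests the group difference against a spread between mice that is estimated partly from all genes. The tests were run on simulated counts beforehand. The members, gene lists and tests were chosen with earlier results of these data known. Values are given for genes past the threshold, the 10 largest and 10 smallest log2 fold changes, 11 fixed anchors and the 10 highest mean TPM; of the 43 other genes, for the 3 largest and 3 smallest, of which 1 is not reported here. Any other gene was named after its values were seen. The alternatives comprised DESeq2 1.42.0, library size and upper quartile scaling, 2 other count filters, each mouse omitted in turn, a block for the mouse number, a gene length trend removed by loess, and limma 3.58.1 on log2(FPKM + 1) or log2(FPKM + 0.1), where an FPKM of 1 had to be reached in 2 libraries. Figures were drawn with matplotlib 3.10.9.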

Additional observations from a re-analysis of the deposited data

How the results depend on the processing

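Of 34 named members, 26 kept the sign of their log2 fold change in every alternative run and 8 did not. The number of members past the adjusted threshold, 1 in edgeR, was 10 with DESeq2, 0 with the gene length trend removed and with limma on log2(FPKM + 0.1), and 0 to 21 when 1 mouse was left out, with 21 without Ksp-Cre mouse 3. Members higher at an unadjusted p under 0.05 numbered 14, and 4 to 25 when 1 mouse was left out: 4 without control mouse 1 and 25 without Ksp-Cre mouse 3. Members lower numbered 3, and 2 to 3. The median log2 fold change of 0.21 was 0.15 to 0.41 when 1 mouse was left out. Of the other matrix degradation genes, 0 passed in edgeR, 9 in DESeq2, 3 with no filter beyond 1 count, 1 with at least 10 counts in every library and 0 to 15 when 1 mouse was left out, with 15 without Ksp-Cre mouse 3. With library size scaling the median of all genes went from 0.04 to 0.15 and that of the members from 0.21 to 0.33, and no call changed. Where an arm was left with 1 mouse, it was assumed to vary like the other group. The causes of these differences were not tested.

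With the mouse number as a block, 0 members passed, 10 were higher at an unadjusted p under 0.05 and the median was 0.13. Deviations of same-numbered mice correlated at 0.014 and -0.016 across genes. The deviations of each control mouse mirror those of the other, so these values cannot show whether same-numbered mice were paired. Signs turned as follows. Adam12, near 0 in the main test, was at -0.00065 with DESeq2, -0.00075 with at least 10 counts in every library, -0.52 with the block, -0.12 with limma on log2(FPKM + 0.1), -0.075 with the length trend removed and -0.39 to 0.44 when 1 mouse was left out. Adam17 was at -0.079 with the block, -0.012 with the length trend removed and -0.061 to 0.16 when 1 mouse was left out. Mmp12 was at 0.096 with library size scaling and -0.38 to 0.37 when 1 mouse was left out. The ranges when 1 mouse was left out were -0.68 to 0.14 for Mmp25, -0.47 to 0.15 for Adam5, -0.02 to 0.11 for Adam15, -0.54 to 0.33 for Mmp13 and -0.56 to 0.29 for Adamts16. Adamts8, Adam4 and Adam5 had at most 18 counts in a library, which limits their precision.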
